A study of Homo sapiens with 8 samples.

Results

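The S100 genes encode a family of small calcium-binding proteins, and 9 of them were followed here: S100A2, S100A3, S100A4, S100A6, S100A11, S100A13, S100A14, S100A16 and S100P. They were chosen by symbol from the 48162 gene identifiers counted, with earlier results of these data known. All 9 were found and passed the filter on low counts, which is therefore no result about the family. S100A10, S100A1 and S100A5 are the other family members with enough counts to be tested and are given for comparison. RNA was sequenced from HT-29, an established human colorectal adenocarcinoma line, in 4 wild-type libraries (WT) and 4 libraries of HT-29-pMIEN1-X cells, edited at the gene MIEN1 (MIEN1_KO). The edited cells came from electroporation of HT-29 with plasmids for a 5' and a 3' guide RNA against MIEN1 and for Cas9, followed by puromycin, dilution to single cells and genotyping of the resulting clones. The WT cells are not described as electroporated, selected or cloned, and how many edited clones were used is not given in the sources used here. Editing, selection, choice of a clone and any unlabelled batch therefore cannot be told apart. Each replicate pooled RNA from 4 dishes, and both groups were grown in the same medium.

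An S100 protein carries a pair of EF-hands, the helix-loop-helix motif that holds calcium, and usually works as a dimer. Binding of calcium opens a surface that docks on target proteins such as annexins, non-muscle myosin and ezrin, so the family ties calcium signals to the cytoskeleton, the plasma membrane and secretion. Some members also leave the cell and act on receptors such as RAGE. Most of the genes lie in a cluster on the long arm of chromosome 1, the epidermal differentiation region, while S100P lies on chromosome 4. In the intestinal epithelium and its tumours S100A4 has been studied for its link to cell motility and metastasis, and S100P for its link to epithelial tumour growth.

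The promoter windows of the genes on which the results turn are shown first, for the 2 called genes and their most abundant neighbour. RefSeq (GRCh38.p14) gave 13 windows of 250 bases before the start sites of the 9 genes, and all 9 genes were matched. The windows below all lie on the minus strand and are written 5' to 3', ending at the base before the start. They belong to S100A4 (chr1:153545807-153546056), which was lower in the edited cells, to its abundant neighbour S100A6 (chr1:153535992-153536241), and to the S100A16 starts (chr1:153609356-153609605 and chr1:153613138-153613387), S100A16 being higher. Capitals mark a TATAAA or GGGCGG match.
S100A4: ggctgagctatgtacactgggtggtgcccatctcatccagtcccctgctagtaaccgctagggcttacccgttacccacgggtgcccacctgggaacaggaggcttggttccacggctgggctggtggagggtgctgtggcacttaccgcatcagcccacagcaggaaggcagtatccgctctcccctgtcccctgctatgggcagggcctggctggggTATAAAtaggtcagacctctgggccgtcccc
S100A6: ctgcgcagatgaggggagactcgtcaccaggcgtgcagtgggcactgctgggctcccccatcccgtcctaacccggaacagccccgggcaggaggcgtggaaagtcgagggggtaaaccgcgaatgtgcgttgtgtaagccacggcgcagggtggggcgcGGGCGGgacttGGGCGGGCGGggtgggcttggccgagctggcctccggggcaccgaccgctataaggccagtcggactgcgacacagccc
S100A16, first window: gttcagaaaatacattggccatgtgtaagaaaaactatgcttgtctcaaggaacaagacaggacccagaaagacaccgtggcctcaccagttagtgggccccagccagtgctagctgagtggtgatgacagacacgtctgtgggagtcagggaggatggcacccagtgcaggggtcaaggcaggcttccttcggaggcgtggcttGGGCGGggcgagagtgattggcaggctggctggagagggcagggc
S100A16, second window: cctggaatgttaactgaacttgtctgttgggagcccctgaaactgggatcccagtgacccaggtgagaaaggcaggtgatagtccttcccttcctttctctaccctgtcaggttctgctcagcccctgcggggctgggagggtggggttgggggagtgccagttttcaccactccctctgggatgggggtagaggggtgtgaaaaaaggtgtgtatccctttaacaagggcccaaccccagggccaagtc

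4 short motifs were searched on both strands: TATAAA (the TATA box), GGGCGG (the GC box bound by SP1), TGANTCA (the AP-1 site) and TTCAAAG (a core of the TCF/LEF site). TATAAA was found in 3 of the 13 windows, 31 bases before the start in S100A4, 29 in 1 of the 3 windows of S100A13 and 28 in S100P, and in 10.8% of all 34943 windows of that length. GGGCGG was found in 5 windows, among them 1 of the S100A16 windows and that of S100A6, which held 3 matches with an overlap between 2 of them, and in 42.5% of all windows. TGANTCA was found in a window of S100A2 and that of S100A3 (6.59% of all windows), and TTCAAAG in none of the 13 (3.81% of all windows). These matches describe letters only.

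The edit was visible in the counts of its target. MIEN1, a small membrane-anchored protein encoded on chromosome 17 and linked to migration, gave 522, 594, 471 and 493 counts in the WT libraries and 15, 19, 23 and 16 in the edited libraries, a log2 fold change (MIEN1_KO over WT) of -4.75 (SE 0.13). Libraries held 21940903 to 25148790 counts. Edited replicate 4 stood apart, with a scatter (chi-square per degree of freedom) of 29.3 to 33.5 against the other edited libraries, which differed by 3.42 to 13.2 among themselves, and with a low scaling factor (0.929). Members whose call changed without it are given with and without it, and most other values include it. All 6 epithelial markers were well above the filter, with summed levels of 10202 to 10585 CPM (counts scaled to a library of standard size) in WT and 13379 to 16998 CPM in MIEN1_KO. KRT8 was the largest part of that sum, with means of 7237 CPM in WT and 10237 CPM in MIEN1_KO. The keratins KRT8, KRT18 and KRT19 were called higher in the edited cells, while EPCAM, CDH1 and VIL1 were not called. Fibroblast markers summed to 2.18 to 3.45 CPM in WT and 3.51 to 5.05 CPM in MIEN1_KO. Most of that was COL1A1, called higher (means of 2.52 and 4.09 CPM, edgeR adjusted p = 0.00586), while LUM had 32 counts in WT and 2 in MIEN1_KO, and COL3A1 was at 0. Leukocyte markers summed to 0.74 to 1.14 and 1.04 to 1.29 CPM, and the 3 matched endothelial markers to at most 0.0926 CPM in any library. The myeloid list summed to 893 to 933 and 721 to 781 CPM, nearly all of it LYZ, lysozyme, with S100A8 at 0. LYZ was called lower (means of 907 and 748 CPM, edgeR adjusted p = 0.00214). The part of these differences in the S100 results was not tested.

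In the edited cells S100A4 was 3.13-fold lower and S100A16 rose. The other 7 genes were not called at an adjusted p of 0.05 (edgeR's quasi-likelihood test, 2-sided, Benjamini-Hochberg adjusted over 14228 genes). Thus 2 of 9 S100 genes were called, where 41.7% of all tested genes were called in either direction, 21% higher and 20.7% lower. The median log2 fold change was -0.14 over the 9 genes and -0.02 over all tested genes. In bulk RNA, fewer cells that express a gene and less RNA per cell cannot be told apart.

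S100A4 (ENSG00000196154; GRCh38 chr1:153543613-153550136, minus strand) encodes a partner of non-muscle myosin IIA that is known for its role in cell motility. Its level was 293, 303, 266 and 293 CPM in WT replicates 1 to 4 and 101, 86.8, 64.1 and 117 CPM in MIEN1_KO replicates 1 to 4. The groups did not overlap, and the highest edited library lay far under the lowest WT library. Among all tested genes, 41.0% did not overlap in either direction and 21% were lower without overlap. The mean fell from 289 ± 15.8 CPM to 92.2 ± 22.4 CPM (SD, n = 4 each). That leaves 31.9% of the wild-type level, a log2 fold change of -1.65 (SE 0.14, 95% interval -1.94 to -1.35, edgeR adjusted p = 7.3e-07). By size its change exceeded that of 97.5% of tested genes.

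S100A16 (ENSG00000188643; chr1:153606886-153613145, minus strand), a widely expressed family member, went the other way. It stood at 157, 156, 154 and 167 CPM in WT and at 228, 244, 231 and 297 CPM in MIEN1_KO. The groups did not overlap, which held upward for 20.1% of all tested genes, and edited replicate 4 was the highest library. The mean rose from 159 ± 5.47 CPM to 249.9 ± 32.3 CPM (SD, n = 4 each). This is 1.58-fold (95% interval 1.39 to 1.78), a log2 fold change of 0.66 (SE 0.08, edgeR adjusted p = 3.7e-05). Both S100A4 and S100A16 kept their direction and their call in all 19 alternative analyses, with ranges of -1.82 to -1.49 and 0.47 to 0.71.

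**Figure D1:**
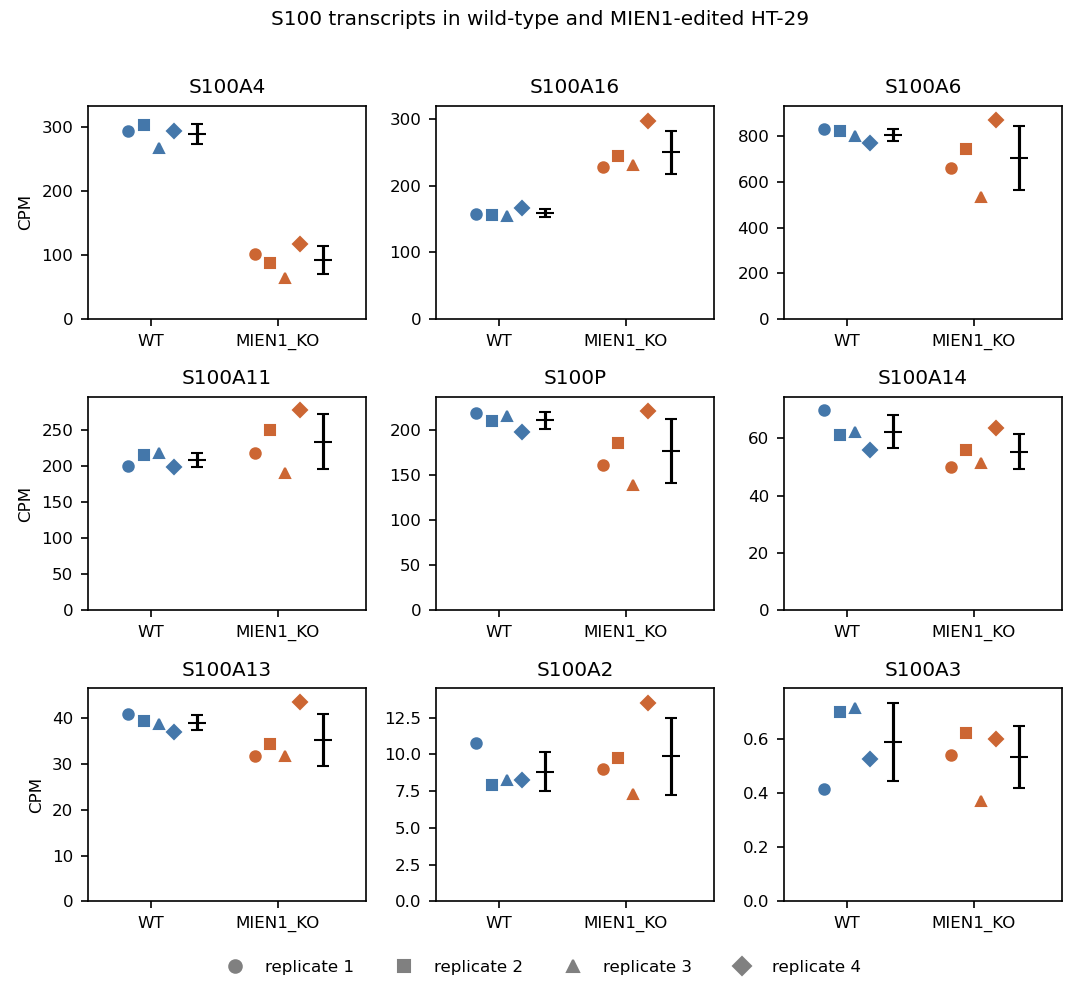
CPM (y axis, from 0) of the 9 S100 genes in each WT and MIEN1_KO library, with a symbol for each replicate and the mean ± SD in black. S100A4 (64.1 to 117 CPM after the edit) and S100A16 (228 to 297 CPM) are clear of their WT values, while the other 7 panels overlap in part or whole.

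S100A6 (ENSG00000197956; chr1:153534599-153536244, minus strand), calcyclin, a partner of annexins and of the ubiquitin ligase adaptor CACYBP, was the most abundant of the 9. It gave 830, 825, 802 and 772 CPM in WT and 663, 744, 536 and 872 CPM in MIEN1_KO. Edited replicates 1 to 3 lay below every WT library and edited replicate 4 above every one. The means were 807 ± 26.6 and 704 ± 141 CPM (SD, n = 4 each), a log2 fold change of -0.20 (95% interval -0.44 to 0.05, edgeR adjusted p = 0.179).

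S100P (ENSG00000163993; chr4:6693069-6697170, plus strand), an ezrin- and RAGE-binding protein raised in many epithelial tumours, had the same pattern across libraries. It stood at 219, 210.1, 215 and 198 CPM in WT and at 161, 185, 139 and 221 CPM in MIEN1_KO, so that again edited replicates 1 to 3 lay below every WT library and edited replicate 4 above every one. The means were 211 ± 9.18 and 176 ± 35.1 CPM (SD, n = 4 each), a log2 fold change of -0.26 (95% interval -0.50 to -0.02, edgeR adjusted p = 0.0799).

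S100A14 (ENSG00000189334; chr1:153614255-153616986, minus strand), an epithelial member, measured 69.9, 61.2, 62.2 and 56.0 CPM in WT and 50.2, 56.1, 51.4 and 63.8 CPM in MIEN1_KO. The groups overlapped, with a log2 fold change of -0.17 (95% interval -0.36 to 0.02, edgeR adjusted p = 0.143). S100A13 (ENSG00000189171; chr1:153618787-153631360, minus strand), which takes part in the release of FGF1 and IL1A without a signal peptide, measured 41.0, 39.5, 38.7 and 37.1 CPM in WT and 31.7, 34.4, 31.7 and 43.7 CPM in MIEN1_KO. The groups overlapped only through edited replicate 4 (log2 fold change -0.14, 95% interval -0.35 to 0.07, edgeR adjusted p = 0.253). The exons of S100A13 share 235 bases (10.6%) with S100A1 on the other strand and 536 bases (24.2%) with the transcript AL162258.1 on the same strand, and whether the counting used strand is not stated.

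These 4 genes, S100A6, S100P, S100A14 and S100A13, were called lower together with S100A4 when edited replicate 4 was left out, when the trend with transcript GC content was removed and when that with transcript length was removed. Without edited replicate 4 the edgeR log2 fold changes were -0.30 for S100A6 (adjusted p = 0.00901), -0.36 for S100P (8.2e-04), -0.23 for S100A14 (0.0122) and -0.24 for S100A13 (0.00346). That made 5 of 9 S100 genes lower, where 21.5% of all tested genes were lower in the same analysis, and S100A16 alone higher, where 24.4% were. With the GC trend removed it was again 5 of 9, where 18.6% of all tested genes were lower and 17.9% higher, and the values were -0.48 for S100A6 (edgeR adjusted p = 0.00159), -0.34 for S100P (0.0124), -0.28 for S100A14 (0.00829) and -0.29 for S100A13 (0.00832). Whether these 4 genes pass the threshold therefore turned on the analysis, while their direction was downward in all 19 alternatives.

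S100A11 (ENSG00000163191; chr1:152032506-152047907, minus strand), a partner of annexin A1, stood at 201, 216, 219 and 199 CPM in WT and at 218, 250.3, 191 and 278 CPM in MIEN1_KO. The lowest and the highest library were both edited. The log2 fold change was 0.17 (95% interval -0.04 to 0.38, edgeR adjusted p = 0.188). It was called higher without edited replicate 3 (0.27, edgeR adjusted p = 0.0242), where 20.6% of all tested genes were higher, and shrank to 0.05 with the GC trend removed. Its 2 processed pseudogenes, S100A11P1 and S100A11P2, had 0 counts in all 8 libraries. Whether reads with several matches were counted is not known here, so 0 counts need not mean that the copies were silent.

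S100A2 (ENSG00000196754; chr1:153561108-153567890, minus strand), a p53-binding member best known from stratified epithelia, was low, at 10.8, 7.94, 8.25 and 8.27 CPM in WT and 9.0, 9.76, 7.3 and 13.5 CPM in MIEN1_KO. The groups overlapped (log2 fold change 0.16, 95% interval -0.19 to 0.51, edgeR adjusted p = 0.447), and the estimate was 0.29 without WT replicate 1 and 0.00 without edited replicate 4. S100A3 (ENSG00000188015; chr1:153547329-153549372, minus strand), a hair cuticle protein, lies inside the span of S100A4 and shares 0 exon bases with it. It was counted 10, 18, 17 and 12 times in WT and 13, 15, 8 and 13 times in MIEN1_KO. At this depth no difference was detectable (log2 fold change -0.14, 95% interval -0.74 to 0.46, edgeR adjusted p = 0.714), and the fall of the surrounding S100A4 lay outside that interval.

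**Figure D2:**
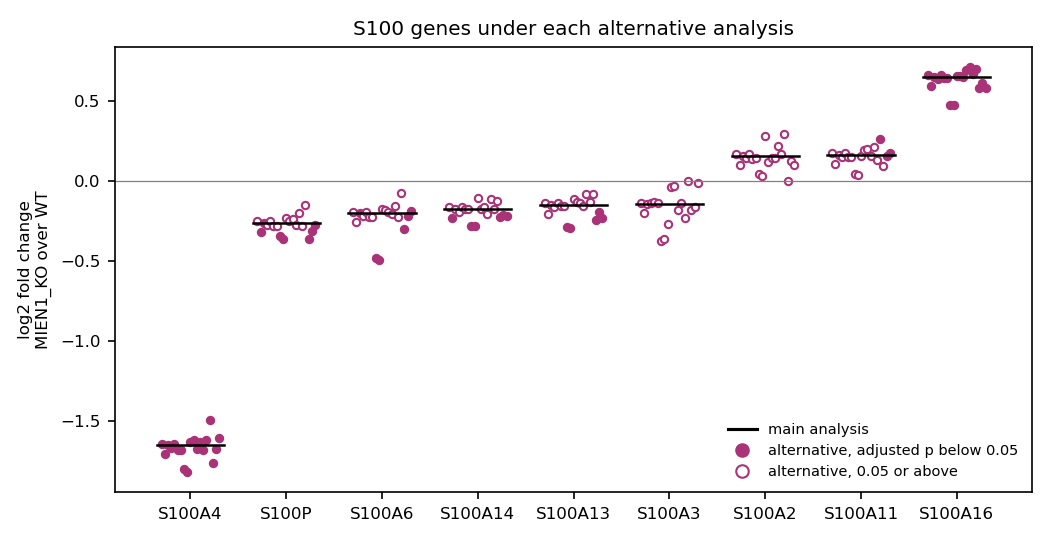
Log2 fold change of each S100 gene in the main analysis (black bar) and under each alternative (points, filled where the adjusted p is below 0.05). S100A4 and S100A16 are filled throughout, S100A2 and S100A3 never, and the other 5 genes in some alternatives.

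**Figure D3:**
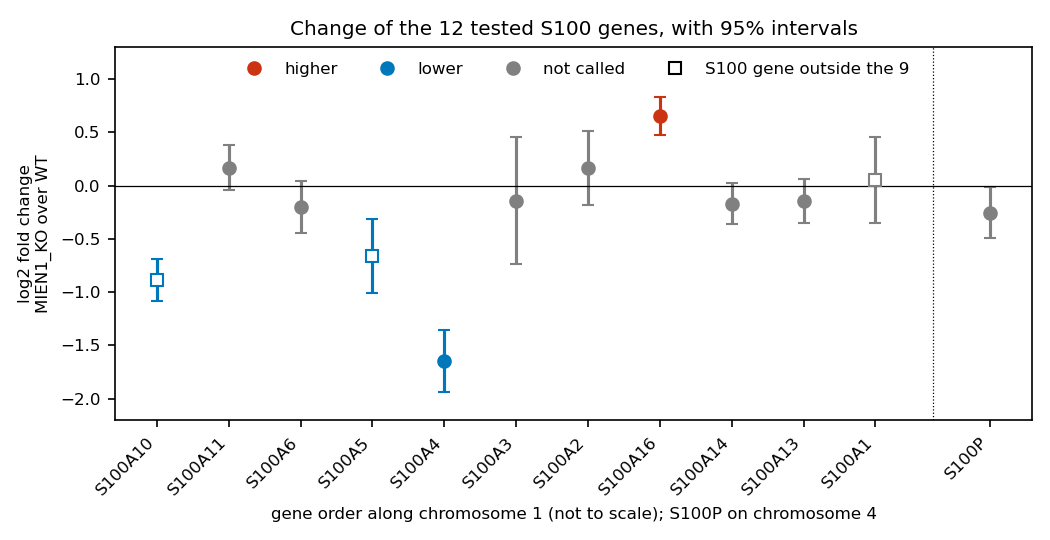
Log2 fold change (MIEN1_KO over WT) with its 95% interval for the 12 tested S100 genes, in their order along chromosome 1, with S100P on chromosome 4 at the right. The called genes S100A4 (-1.65) and S100A16 (0.66) are shown with S100A5 (-0.66), the neighbour of S100A4 that was also lower, and with S100A3, S100A2 and S100A14, neighbours whose intervals include 0.

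Of the other 3 tested S100 genes, all on chromosome 1, S100A10 and S100A5 were called lower and S100A1 was not called. S100A10 (p11), which pairs with annexin A2 at the plasma membrane and lies next to S100A11, stood at 373 ± 22.4 CPM in WT and 202 ± 28.1 CPM in MIEN1_KO (SD, n = 4 each), lower by edgeR at -0.89 on the log2 scale (adjusted p = 5.5e-06). S100A5, between S100A6 and S100A4, stood at 4.22 ± 0.331 and 2.67 ± 0.696 CPM, lower by edgeR at -0.66 (adjusted p = 0.00507). S100A1 was at 1.24 CPM in WT and 1.29 CPM in MIEN1_KO (log2 fold change 0.05, edgeR adjusted p = 0.85). Its sign turned in 5 of 18 alternatives, among them removal of the GC trend (-0.18). The calprotectin and antimicrobial members S100A8, S100A12, S100A7 and S100A7L2, and also S100B and S100Z, had 0 counts in all 8 libraries. A count of 0 over a group allows up to 3 counts, equal to 0.0312 CPM for the WT group and 0.0329 CPM for the edited group, with counting error alone covered. S100A9, S100A7A and S100G had 1, 1 and 2 counts in all 8 libraries together.

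Ratios of genes within a library do not depend on the scaling between libraries. S100A4 gave 0.332 to 0.38 counts per count of S100A6 in WT and 0.117 to 0.153 in MIEN1_KO. S100A16 gave 2.25 to 2.97 counts per count of its neighbour S100A14 in WT and 4.35 to 4.66 in MIEN1_KO, with a mean of 4.51 ± 0.128 (SD, n = 4). The ratio of S100A4 to S100A16 was 1.73 to 1.94 in WT and 0.278 to 0.444 in MIEN1_KO, so the more counted of these 2 genes switched.

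S100A11 to S100A6 was 0.242 to 0.272 in WT and 0.319 to 0.356 in MIEN1_KO, with no overlap, although neither gene was called on its own. S100A13 to S100A14 overlapped (0.586 to 0.661 and 0.614 to 0.684), as did S100P to S100A6 (0.255 to 0.268 and 0.242 to 0.259). S100A10 to S100A11 was 1.71 to 1.86 in WT and 0.803 to 0.945 in MIEN1_KO. The ratios were not tested, and the share of all gene pairs without overlap was not counted. Trends with GC content or transcript length can still act on a ratio.

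**Figure D4:**
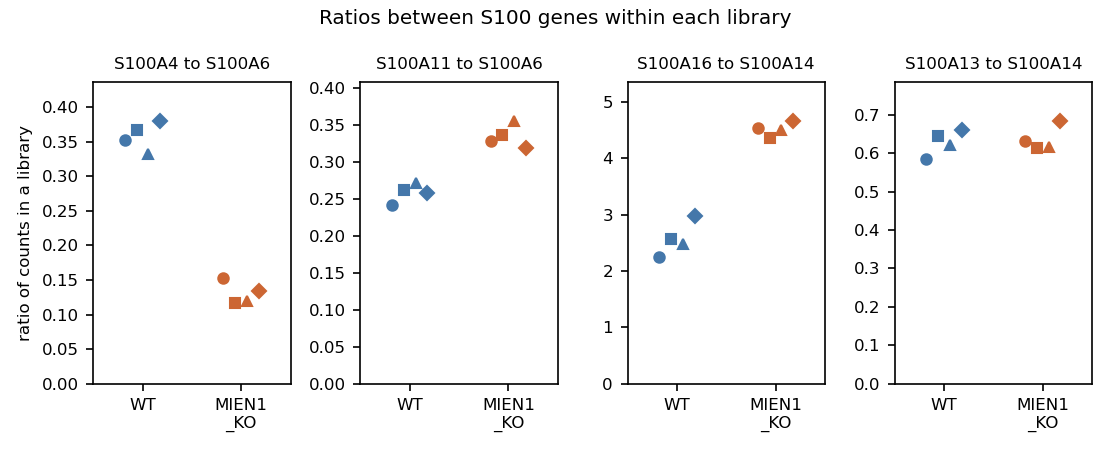
Ratio of the counts of paired S100 genes within each library (y axis, from 0), with a symbol for each replicate, in WT and MIEN1_KO. S100A4 to S100A6 is lower (0.117 to 0.153 against 0.332 to 0.38), S100A11 to S100A6 and S100A16 to S100A14 are higher without overlap, and S100A13 to S100A14 overlaps.

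Set side by side per kilobase of exon, the order of the genes changed around S100A4 and S100A16. In WT the levels, as mean CPM per kilobase, were S100A6 at 831 ± 27.3, S100A11 at 307 ± 14.8, S100A4 at 282 ± 15.4, S100P at 164 ± 7.17 and S100A16 at 93.2 ± 3.22 (SD, n = 4 each). Below them came S100A14 at 48.8, S100A13 at 17.6, S100A2 at 5.63 and S100A3 at 0.618. Only S100A11 and S100A4 overlapped among neighbours in this order, and with the length of the longest transcript in place of all exons S100A4 (382) stood above S100A11 (351).

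In MIEN1_KO the order was S100A6 at 725 ± 145, S100A11 at 345 ± 55.5, S100A16 at 147 ± 19.0, S100P at 138 ± 27.4 and S100A4 at 90.0 ± 21.9 CPM per kilobase, and the 4 lower genes kept their places at 43.4, 16, 6.31 and 0.56. S100A4 thus moved from rank 3 to rank 5 and S100A16 from rank 5 to rank 3, though in MIEN1_KO the ranges of S100A16 and S100P overlapped, as did those of S100P and S100A4. The 9 genes together took 0.178 to 0.186% of the counts of a WT library and 0.124 to 0.177% of those of an edited library. Within that sum S100A6 held 44.6 to 45.6% in WT and 42.8 to 46.2% in MIEN1_KO. S100A4 went from 15.1 to 16.9% of the sum to 5.12 to 6.92%, and S100A16 from 8.59 to 9.62% to 15.1 to 18.4%.

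The 9 genes also varied together between edited libraries. Edited replicate 3 was below the mean of its group for all 9 genes (median deviation -0.32 on the log2 scale) and edited replicate 4 above it for all 9 (0.32). In WT no library deviated in 1 direction for all 9, and the medians stayed between -0.07 and 0.04. The spread between replicates was wider after the edit for 8 of the 9 genes, with a coefficient of variation of 3.29% in WT and 20.0% in MIEN1_KO for S100A6, 4.36% and 19.9% for S100P, and 5.45% and 24.3% for S100A4. The exception was S100A3 (24.2% and 21.6%). The share of all tested genes with a wider spread in the edited libraries was not counted. Edited replicate 4 stood apart over all genes, so the wider spread is not shown to be particular to these 9.

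Transcript length moved with these deviations. Over the 953 tested genes whose longest transcript had at most 1000 bases, the median deviation was -0.12 in edited replicate 3 and 0.17 in edited replicate 4, and over the 5575 with at least 4000 bases it was 0.06 and -0.10. In WT the short-transcript medians were -0.01 to 0.02. The longest transcripts of S100A2, S100A3, S100A4, S100A6 and S100A11 have 594 to 998 bases, and those of the other 4 genes 1146 to 2184. With the length trend removed S100A4 was at -1.67 and S100A16 at 0.62, and S100A11 joined the higher genes (0.16, edgeR adjusted p = 0.0477). That made 5 of 9 lower and 2 of 9 higher, where 23.6% of all tested genes were lower and 24.1% higher. Without edited replicates 3 and 4 together, S100A4 was at -1.61 and S100A16 at 0.59, and again 5 of 9 were lower and 2 of 9 higher, where 19.0% of all tested genes were lower and 20.0% higher.

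**Figure D5:**
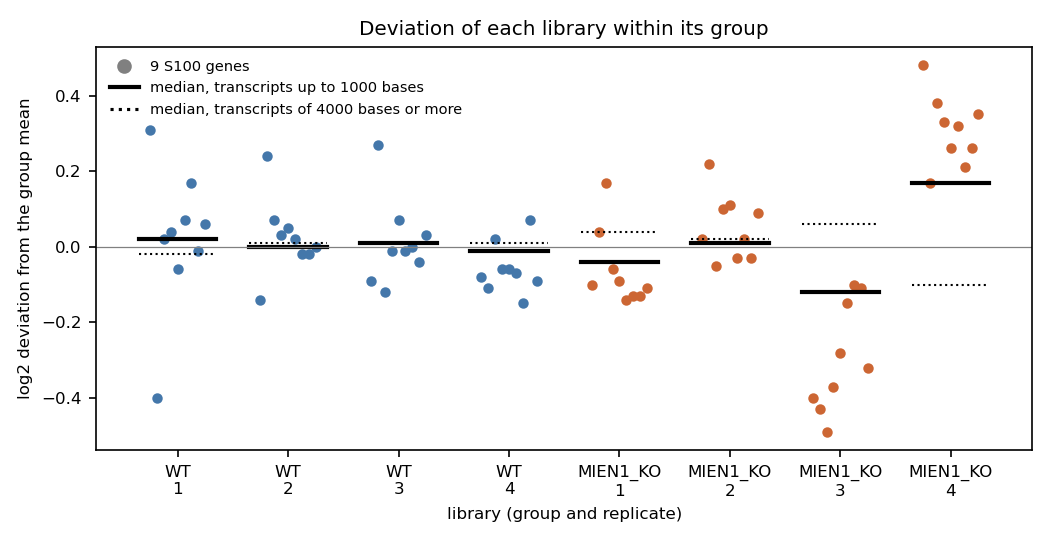
Log2 deviation of the 9 S100 genes (points) from their group mean in each library, with the median deviation of all tested genes with short (solid line, up to 1000 bases) and long (dotted line, 4000 bases or more) transcripts. In edited replicate 3 all 9 points lie below 0 and in edited replicate 4 all 9 lie above it.

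Across the 8 libraries the tested genes whose centred log2 CPM profiles were nearest to S100A4, out of 10652 genes searched, were MYO7B (Euclidean distance 0.44), a brush border myosin, NOX1 (0.45), the colonic NADPH oxidase, and CHPT1 (0.46), a choline phosphotransferase. The median distance from S100A4 was 2.48. These distances include the step between WT and MIEN1_KO, so a gene near a member has a similar fold change by construction. For S100A4 the 3 log2 fold changes were -1.70 (MYO7B), -1.86 (NOX1) and -1.87 (CHPT1). Nearness, and the size of the median distance, are therefore no separate evidence of a shared profile. The nearest to S100A16 were TALDO1 (0.12), of the pentose phosphate pathway, CALB2 (0.14), the EF-hand protein calretinin, and TUBA4A (0.14), an alpha-tubulin, with a median of 1.03. The nearest to S100P were TOMM7 (0.11), S100A6 (0.12) and the ribosomal protein gene RPS19 (0.13), with a median of 0.78.

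Genes for known partners and receptors of S100 proteins were read from the same test. Of 29 listed genes 25 were tested, 7 were higher (ANXA6, ANXA11, STUB1, PPFIBP1, MYH9, BSG and FKBP4), 3 were lower (MYH14, EZR and ANXA5) and 15 were not called, so that 10 of 25 were called where 41.7% of all tested genes were, a share close to that background. With the GC trend removed STUB1, BSG and MYH9 were not called, and MYH9, the heavy chain of the myosin that S100A4 binds, went from 0.22 on the log2 scale to -0.01. MYH14, another non-muscle myosin (-0.24), was not called in 5 of 19 alternatives and was at -0.61 with the GC trend removed. The median log2 fold change of the 25 genes was -0.06, against -0.02 over all tested genes. Among the partners of S100A4, PPFIBP1 (liprin beta 1) went from 53.1 ± 2.63 to 77.9 ± 11.9 CPM (log2 fold change 0.56, edgeR adjusted p = 6.1e-04). EZR (ezrin), which S100P binds, went from 392 ± 7.27 to 259.7 ± 8.47 CPM (-0.60, edgeR adjusted p = 3.1e-06). Of the annexins, ANXA6 rose from 11.4 ± 0.807 to 29.6 ± 2.11 CPM (1.38, edgeR adjusted p = 2.6e-08) and ANXA5 fell from 302 ± 6.57 to 229 ± 13.3 CPM (-0.40, edgeR adjusted p = 1.8e-04). Each mean ± SD here is over 4 libraries.

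Of 41 other EF-hand genes 34 were tested, of which 9 were higher, 7 lower and 18 not called, with a median log2 fold change of 0.02. The 16 called of 34 are likewise close to the 41.7% of all tested genes. The smallest p-values were those of RCN1, a reticulocalbin of the endoplasmic reticulum (log2 fold change -0.58, edgeR adjusted p = 7.3e-06), EHD1, of endocytic recycling (0.75, 8.8e-06), CALB2 (0.67, 1.7e-05) and EFHD2 (swiprosin, 0.73, 5.5e-05). EHD1 and EFHD2 were at 0.45 and 0.41 with the GC trend removed, still called. Of 15 entries for the fused S100 and cornified envelope genes of the chromosome 1 cluster, 14 were matched and 2 tested. SPRR1B, a cornified envelope precursor, rose from 0.123 ± 0.107 to 0.849 ± 0.154 CPM (SD, n = 4 each; edgeR adjusted p = 3.1e-04). It was counted 2, 4, 6 and 0 times in WT and 21, 15, 21 and 20 times in MIEN1_KO. It thus passed the filter on low counts only through the edited libraries, where it was high, and its p-value carries that limit. IVL (involucrin) was at 1.51 and 1.92 CPM and not called, and 7 others were at 0 throughout.

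Other genes near the members on the 2 chromosomes were read in the same way, against the same 41.7%. Of 19 tested neighbours on chromosome 1, 2 were higher, SLC39A1 (a zinc transporter; log2 fold change 0.34, edgeR adjusted p = 0.0026) and INTS3 (0.31, 0.00155), 1 was lower, RPS27 (a ribosomal protein; -0.34, 0.0202), and 16 were not called, MRPL9 among them. RPS27 was not called in 7 of 19 alternatives, and SLC39A1 was at 0.14 with the GC trend removed. On chromosome 4 S100P itself was at -0.26. Of its 11 tested neighbours 5 were higher and 0 lower, where 21% of all tested genes were higher and 20.7% lower. The 5 called of 11 are close to the 41.7% of all tested genes called in either direction. They included WFS1 (wolframin; 101 ± 3.56 to 334 ± 23.0 CPM, SD, n = 4 each, edgeR adjusted p = 3.8e-10), PPP2R2C (0.696 to 5.98 CPM, edgeR adjusted p = 3.7e-08), TADA2B (0.45 on the log2 scale, edgeR adjusted p = 8.3e-04) and BLOC1S4 (0.37, edgeR adjusted p = 0.0115).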

How the data were processed

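RNA of 8 HT-29 libraries, 4 WT and 4 MIEN1_KO, was measured as raw counts per gene, which the authors deposited in a separate file for each library. TopHat2 2.0.9, HTSeq 0.6.1 and the build GRCh38 are named in the submitters' processing notes, which here carry no settings. How HTSeq treated strand, overlapping genes and reads with several matches is not known here. Names, positions, exon lengths and GC content came from GENCODE release 29, in which 45342 of 48162 identifiers were found, and promoter windows from RefSeq.

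Genes were tested with edgeR 4.0.16 in R 4.3.3 (filterByExpr, TMM factors, robust quasi-likelihood fit on group, 2-sided, Benjamini-Hochberg adjusted p below 0.05) on all 8 libraries. CPM use TMM-scaled library totals. The SE is that implied by the F statistic, and the 95% interval uses it with the moderated degrees of freedom. The code was tested on simulated data with known changes in well counted genes. It recovered 48% of 1.25-fold, 90% of 1.5-fold and 100% of 2.0-fold changes. Changes as small as those estimated for the uncalled members can therefore be missed. Alternatives used DESeq2 1.42.0, limma 3.58.1 (voom), other scalings and filters, a replicate block, a GC offset and each library left out. Removal of the transcript length trend and of edited replicates 3 and 4 together was added after seeing the data. Other work used Python 3.11.15 with pandas 2.3.3, scipy 1.17.1 and matplotlib 3.10.9.

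Named genes are the 9 members, other S100 genes with at least 10 counts in a library, up to 4 tested genes per list with the smallest p, the 3 nearest profiles (mean log2 CPM at least 2) of the 3 members with the smallest p, S100A10 and MIEN1. Beyond that rule, genes called in the partner list and the S100 genes at or near 0 were named after their values were seen. The members and lists were chosen with earlier results of these data known. The labels call the replicates independent, and the 4 same-numbered pairs did not deviate together throughout, so no pairing was assumed. No 2 libraries agreed within sampling noise (lowest chi-square per degree of freedom 2.45).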

Additional observations from a re-analysis of the deposited data

Results flagged for a closer look

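Of 24 groups of 4 libraries examined (the 12 tested S100 genes in WT and in MIEN1_KO), 2 held a library far from the other 3, and chance gives about 1 in 20 such groups. S100A2 stood at 10.8 CPM in WT replicate 1, with a gap to the next library of 0.886 of the range of the group (critical value 0.829). S100A1 stood at 1.45 CPM in WT replicate 4, with a gap share of 0.965.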

How the results depend on the processing

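S100A4 (-1.82 to -1.49) and S100A16 (0.47 to 0.71) kept direction and call in all 19 alternatives, S100A2 (0.00 to 0.29) and S100A3 (-0.37 to 0.01, 18 alternatives) were called in none, and S100P was called in 7, S100A6 and S100A14 in 6, S100A13 in 5 and S100A11 in 3. Log2 fold changes are given throughout. Upper-quartile scaling called 3 members lower (S100A14 -0.23 and S100P -0.32 added), 11 EF-hand genes lower, and 2468 genes higher against 3752 lower (26.4% of all tested genes), so that 39.7% of calls were higher against 50.2% in the main analysis. S100A1, 0.05 in the main analysis, was at -0.005 there. With no filter 3 members were lower (S100A6 -0.20, S100P -0.26), where 12% of all tested genes were lower. With the GC trend removed, 18.6% of all tested genes were lower and 17.9% higher. There 5 members were lower (S100A6 -0.48, S100A13 -0.29, S100A14 -0.28, S100P -0.34), as were 5 partners. In the same fit 4 chromosome 1 neighbours were higher, with S100A1 at -0.18 and MYH9 at -0.009. With the length trend removed, where 23.6% of all tested genes were lower and 24.1% higher, 5 members were lower (S100A6 -0.22, S100A13 -0.19, S100A14 -0.21, S100P -0.31), 2 higher (S100A11 0.16) and 2 chromosome 1 neighbours lower. Without edited replicates 3 and 4, where 19.0% were lower and 20.0% higher, the same 5 members were lower (S100A6 -0.19, S100A13 -0.23, S100A14 -0.22, S100P -0.28) and 2 higher (S100A11 0.18), with S100A1 at -0.13. The last 2 alternatives were chosen after seeing the data.

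With each library left out in turn, 1 to 5 members were lower, 1 to 2 higher, 4 to 10 EF-hand genes lower and 0 to 2 chromosome 1 neighbours lower. In the same runs 15.3 to 21.5% of all tested genes were lower and 17.2 to 24.4% higher. The member values ran from -0.30 to -0.074 for S100A6, -0.24 to -0.079 for S100A13, -0.23 to -0.10 for S100A14, -0.36 to -0.14 for S100P, 0.10 to 0.27 for S100A11 and -0.27 to 0.006 for S100A3. S100A1 ran from -0.00 to 0.145. The 5 lower members arose without edited replicate 4 (21.5% of all tested genes lower), where S100A1 was at -0.00, and the second higher one without edited replicate 3 (20.6% of all tested genes higher), where S100A3 was at 0.006. The 4 EF-hand genes arose without edited replicate 1, where 16.9% of all tested genes were lower.

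The replicate numbers did not pair the libraries (same-number correlations of -0.08, 0.20, 0.07 and 0.01, with replicate 2 alone nearest its own number). With the replicate block 3002 genes were higher and 2982 lower, and no member's call changed. The block with the GC trend removed called 16.9% of all tested genes lower and 15.9% higher. It called 5 members lower (S100A6 -0.49, S100A13 -0.29, S100A14 -0.28, S100P -0.36) and 5 partners lower. It called 3 chromosome 4 neighbours higher, with S100A1 at -0.18 and MYH9 at -0.014. The cause of these changes was not tested. With the longest transcript as length, WT levels were 8.84 CPM per kilobase for S100A2, 382 for S100A4, 1199 for S100A6, 351 for S100A11 and 138 for S100A16. Depth limits S100A3, with 8 to 18 counts per library.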
